A study of Mus musculus with 12 samples.

Results

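The translation initiation factor genes are for the most part genes whose products bring ribosomes to mRNAs and set where protein synthesis begins. They were taken as the gene models with a symbol that starts with Eif and a digit, without Eif4g1, Eif2s3x and Eif2s3y, which gave 50 of the 13770 protein-coding models measured. The rule uses symbols alone, so it also takes in kinases and binding proteins that restrain initiation, and eIF5A, which helps the ribosome later. It was chosen with earlier results of these data known. All 50 passed the filter on low values, a mean of at least 1 FPKM over all libraries, and were tested among 12346 genes. FPKM counts fragments per length of transcript and per sequencing depth, which is meant to make levels comparable between genes. That holds only roughly here, since some gene values differed from the gene's only listed transcript (34.7 against 80.3 FPKM for Eif3e).

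Messenger RNA was sequenced after poly-A selection from 12 whole brains of C57BL/6 mice (C57BL/6J in the methods) at embryonic day 18 (E18), with 1 library for each brain. The 6 brains of the prenatal alcohol exposure (PAE) group came from dams that drank ethanol sweetened with saccharin during mating and pregnancy, and the 6 control brains (SAC) from dams that drank saccharin alone. Each group held 3 males and 3 females. The male PAE brains were ES19-8, ES23-4 and ES27-1, the female PAE brains ES19-4, ES23-7 and ES27-4, the male SAC brains SAC12-6, SAC12-7 and SAC26-8, and the female SAC brains SAC12-5, SAC26-5 and SAC26-7. Drinking was voluntary, all pups were wild type, and each prefix of the names belongs to 1 treatment. Brains were treated as independent although the sources used here do not say which pups were littermates, so p-values reflect the spread among the sampled brains alone.

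The files give no read counts, so the depth of each library is unknown, and FPKM summed to between 218026 and 232863 per library. Hox genes, which are on in hindbrain and spinal cord, set some libraries apart. Their mean over 15 genes was 0.00317 to 0.0119 FPKM in 5 PAE brains and 4.32 FPKM in ES19-4, against 0.0309 FPKM in SAC12-6 and 1.72 to 4.82 FPKM in the other 5 SAC brains. ES19-4 and SAC12-6 were thus each unlike their own group in hindbrain and spinal cord RNA. Of the astrocyte markers, 3 of 6 were lower in PAE (summed FPKM 120 to 208 in PAE against 192 to 236 in SAC), as were 2 of 4 oligodendrocyte lineage markers (33.1 to 50.3 in PAE against 46.9 to 59.5 in SAC). At an unadjusted p under 0.05 these counts were 6 and 4, and without moderation of the variances 2 and 1 passed. Of all genes tested 5.22% were lower in PAE and 4.34% higher by the same test (limma, adjusted p under 0.05). At an unadjusted p under 0.05 the share of all genes was 28.5%. Of the neural progenitor markers, 1 of 6 was higher (summed FPKM 131 to 155 in PAE against 122 to 139 in SAC), with 3 at an unadjusted p under 0.05 and 0 passing without moderation. Of the neuronal markers 0 of 6 passed the test with limma (2 at an unadjusted p under 0.05, 0 passing without moderation of the variances). Of the Hox genes 0 of 10 tested passed (8 unadjusted, 0 without moderation), while Slc6a5, a glycine transporter of hindbrain and spinal cord, was lower (0.293 FPKM in PAE and 2.02 FPKM in SAC, adjusted p = 0.0396, limma, and 0.0787 without moderation). No tested marker of blood, microglia, endothelium, pituitary or choroid plexus passed or had an unadjusted p under 0.05. In whole brain, fewer cells of a type and less RNA per cell cannot be told apart.

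Initiation starts when eIF2 carries the initiator tRNA to the small ribosomal subunit, where eIF1, eIF1A, eIF3 and eIF5 help to form the complex that scans for a start codon. The mRNA is brought in through its cap by eIF4E, the scaffold eIF4G and the helicase eIF4A, and 4E-binding proteins block this step when mTOR is inactive. Stress slows initiation through kinases that phosphorylate eIF2 and so inhibit its exchange factor eIF2B, while eIF5A, which carries the modified lysine called hypusine, helps the ribosome through difficult stretches of peptide.

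The 7 genes that passed the test for PAE vs. SAC were Eif1b, Eif3e, Eif3f, Eif3h, Eif3k and Eif4ebp2, which were higher, and Eif5a2, which was lower. Upstream sequence from RefSeq was at hand for 5 of them and is shown because 4 of the 5 hold the palindrome CACGTG, the core of the E-box bound by Myc and USF proteins, within the 300 bases from 250 before to 50 after the annotated start. The search covered both strands by construction. Among the other initiation factor genes with an entry, 5 of 35 held it, and among all tested genes with an entry 1134 of 9579 did (11.8%), as did 7.15% of all 32851 RefSeq windows of this length. The match is a description of letters in these windows. Each line gives 80 bases 5′ to 3′ on the strand of the gene (GRCm38.p6), with CACGTG in capitals. The windows of Eif1b (chr9:120492526-120492605, plus strand), Eif3f (chr7:108934335-108934414, plus strand), Eif3k (chr7:28981889-28981968, minus strand) and Eif4ebp2 (chr10:61452670-61452749, minus strand) end 1 base before the start, and the window of Eif5a2 (chr3:28781127-28781206, plus strand) runs from 150 to 71 bases before it.
Eif1b: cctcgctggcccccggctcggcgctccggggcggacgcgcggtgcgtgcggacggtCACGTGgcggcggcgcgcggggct
Eif3f: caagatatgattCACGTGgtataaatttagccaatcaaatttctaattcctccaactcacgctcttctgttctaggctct
Eif3k: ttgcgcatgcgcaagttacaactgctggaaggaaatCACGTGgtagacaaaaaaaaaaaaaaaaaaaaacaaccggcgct
Eif4ebp2: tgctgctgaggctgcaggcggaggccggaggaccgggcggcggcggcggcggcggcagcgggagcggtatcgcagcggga
Eif5a2: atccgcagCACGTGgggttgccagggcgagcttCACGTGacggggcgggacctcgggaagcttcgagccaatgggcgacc
The palindrome began 24 bases before the start in Eif1b, 44 in Eif3k and 68 in Eif3f. In Eif5a2 it occurred at 142 and at 117 bases before the start, and in Eif4ebp2 it was not found in the 300 bases. These starts are those of RefSeq. The window of Eif1b lies inside the gene model measured here, which begins at chr9:120492232, whereas the other windows lie before theirs.

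Eif5a2 and its sister gene Eif5a are shown over the codons around the lysine that becomes hypusine, since only Eif5a2 passed the test. The 57 coding bases below (bases 121 to 177 from the start codon, GENCODE M21) hold that lysine as codon 50 in both genes, and capitals mark the 8 bases that differ. All 19 codons name the same residue in both genes.
Eif5a: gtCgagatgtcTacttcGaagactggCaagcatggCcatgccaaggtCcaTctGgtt
Eif5a2: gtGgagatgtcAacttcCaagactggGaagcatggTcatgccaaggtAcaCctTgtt
Over the 462 bases compared from the start codon, 72.1% were identical, and no window of 75 bases in the transcript of Eif5a2 occurred in a transcript of any other gene.

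Most initiation factor genes differed little between PAE and SAC E18 whole brain, and those that passed the test differed by a fraction of the 1.5-fold change the study uses as its threshold. At an adjusted p under 0.05 (limma, Benjamini-Hochberg over all 12346 genes) 6 of 50 were higher in PAE, which is 12% beside 4.34% of all genes tested, 1 was lower (2% beside 5.22%), and 43 did not pass. Without moderation of the variances 4 were higher and 1 lower, as Eif1b (adjusted p = 0.0677) and Eif4ebp2 (adjusted p = 0.066) no longer passed. At an unadjusted p under 0.05 there were 13 higher and 3 lower, which is 32% of the 50 beside 28.5% of all genes tested. The log2 fold change was positive for 40 of 50 (80%, against 51.7% of all genes tested), with a median of 0.06 for the 50 genes and 0.01 for all genes. The groups did not overlap for 5 genes, with PAE above SAC for 4 (8% beside 2.11% of all genes) and below for 1 (2% beside 1.92%). At 1.5-fold and an unadjusted p under 0.05, 0 of 50 passed with limma, 0 without moderation of the variances, and 0.996% of all genes did with limma. For 49 of 50 genes the 95% interval of the fold change of FPKM + 1 lay within 1.5-fold in both directions, the exception being Eif3j2. The added 1 FPKM narrows fold changes and intervals of low genes, such as Eif4ebp1 (2.55 FPKM in PAE and 2.01 FPKM in SAC). For these the statement does not carry over to FPKM itself.

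**Figure D1:**
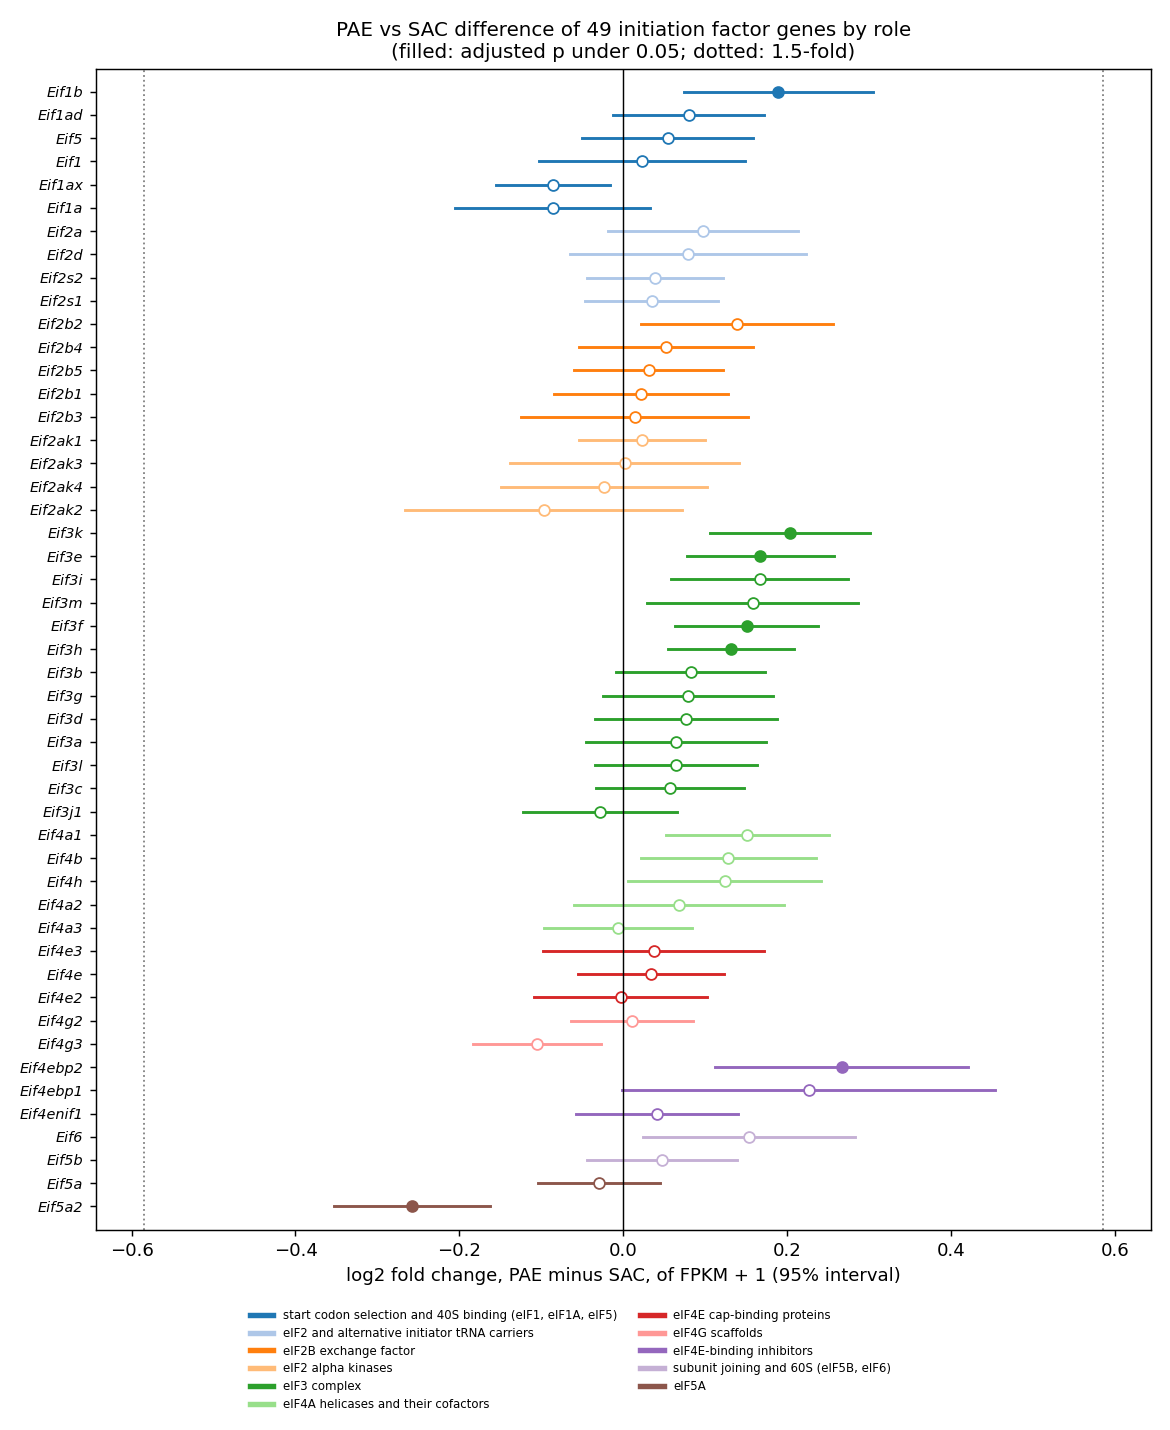
Each point is the log2 fold change of 1 gene, PAE minus SAC, of FPKM + 1 (horizontal axis) with its 95% interval, for 49 genes grouped by role and coloured by group, without Eif3j2. The 7 filled points passed an adjusted p of 0.05, 6 to the right of 0 and Eif5a2 to the left, and no interval reaches the dotted lines at 1.5-fold.

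The calls depended on single brains, as did the calls among all genes. With 1 library left out, the number of the 50 genes higher in PAE was 0 without ES23-4, SAC12-7 or SAC26-8, 1 (Eif3k) without ES27-4, SAC12-5 or SAC26-7, 2 without ES19-8, 3 without ES27-1, 5 without ES23-7 or SAC26-5, 6 without SAC12-6 and 9 without ES19-4. Of all 12346 genes 536 were higher with every brain in the fit. This number was 66 without SAC26-8, 100 without ES23-4, 207 without SAC12-7 and 1108 without ES19-4. SAC26-8 had the lowest value of the 6 SAC brains for all 6 genes that were higher in PAE, and for 18 of the 50 genes in all. Over the 12 fits the call was lost in 3 for Eif3k, 6 for Eif3e, 7 for Eif4ebp2, 9 for Eif1b and 10 for Eif3f and for Eif3h, with adjusted p of up to 0.0963. Eif5a2 was called lower in each of them. With the brains of each name prefix averaged, which leaves 3 PAE and 2 SAC values, 0 of the 50 genes and 0 of all 12346 passed with limma, the smallest adjusted p among the 50 being 0.229 (Eif5a2), and 9 of the 50 had an unadjusted p under 0.05. With the prefix as a random block 4 of the 50 were higher and 1 lower, beside 378 higher and 464 lower of all 12346. The labels do not say what a prefix stands for.

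The largest group with calls was eIF3, the scaffold that holds the small subunit, the other factors and the mRNA together. Of its 14 genes 4 were higher in PAE, 10 did not pass, and 13 had a positive log2 fold change, with a median of 0.11 on the log2 scale. Of all genes tested 4.34% were higher and 51.7% had a positive log2 fold change. Of the 14 genes, 4 separated the groups without overlap, with PAE above SAC, beside 2.11% of all genes. They were the 4 that passed, and both the call and the separation come from the same values.

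Eif3k, whose product is a small subunit at the edge of the complex, had 36.2 (ES19-4), 36.1 (ES19-8), 38.7 (ES23-4), 41.1 (ES23-7), 37.2 (ES27-1) and 34.2 FPKM (ES27-4) in PAE brains, against 33.4 (SAC12-5), 32.1 (SAC12-6), 31.4 (SAC12-7), 33.5 (SAC26-5), 32.9 (SAC26-7) and 29.9 FPKM (SAC26-8) in SAC brains. The lowest PAE brain was above the highest SAC brain, with a log2 fold change of 0.20 ± 0.05 (SE, n = 6 and 6, adjusted p = 0.0245, limma). The call was lost without ES23-4, SAC12-7 or SAC26-8, with an adjusted p of up to 0.061.

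Eif3e, a subunit of the ring of PCI and MPN proteins at the centre of eIF3, had 35.4 (ES19-4), 35.9 (ES19-8), 39.1 (ES23-4), 37.5 (ES23-7), 35.9 (ES27-1) and 36.8 FPKM (ES27-4) in PAE brains, against 32.1 (SAC12-5), 34.9 (SAC12-6), 32.7 (SAC12-7), 33.8 (SAC26-5), 33.0 (SAC26-7) and 29.5 FPKM (SAC26-8) in SAC brains. The groups did not overlap, with SAC12-6 and ES19-4 closest to each other. This gave a log2 fold change of 0.17 ± 0.04 (SE, n = 6 and 6, adjusted p = 0.0309, limma).

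Eif3f and Eif3h encode the MPN-domain pair of the complex. Eif3f had 48.8 (ES19-4), 48.8 (ES19-8), 47.6 (ES23-4), 54.5 (ES23-7), 50.3 (ES27-1) and 49.5 FPKM (ES27-4) in PAE brains, against 46.0 (SAC12-5), 47.2 (SAC12-6), 45.7 (SAC12-7), 45.02 (SAC26-5), 43.7 (SAC26-7) and 41.6 FPKM (SAC26-8) in SAC brains. The lowest PAE brain, ES23-4, was just above the highest SAC brain, SAC12-6, and the log2 fold change was 0.15 ± 0.04 (SE, n = 6 and 6, adjusted p = 0.0376, limma). Eif3h, the gene with the highest mean of the 50, had 163 (ES19-4), 156 (ES19-8), 167 (ES23-4), 164 (ES23-7), 162 (ES27-1) and 159 FPKM (ES27-4) in PAE brains, against 149 (SAC12-5), 150.0 (SAC12-6), 150.5 (SAC12-7), 152 (SAC26-5), 149.6 (SAC26-7) and 135 FPKM (SAC26-8) in SAC brains. The SAC brains other than SAC26-8 lay within a few FPKM of each other and all below the PAE brains. Its log2 fold change was 0.13 ± 0.04 (SE, n = 6 and 6, adjusted p = 0.0379, limma).

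**Figure D2:**
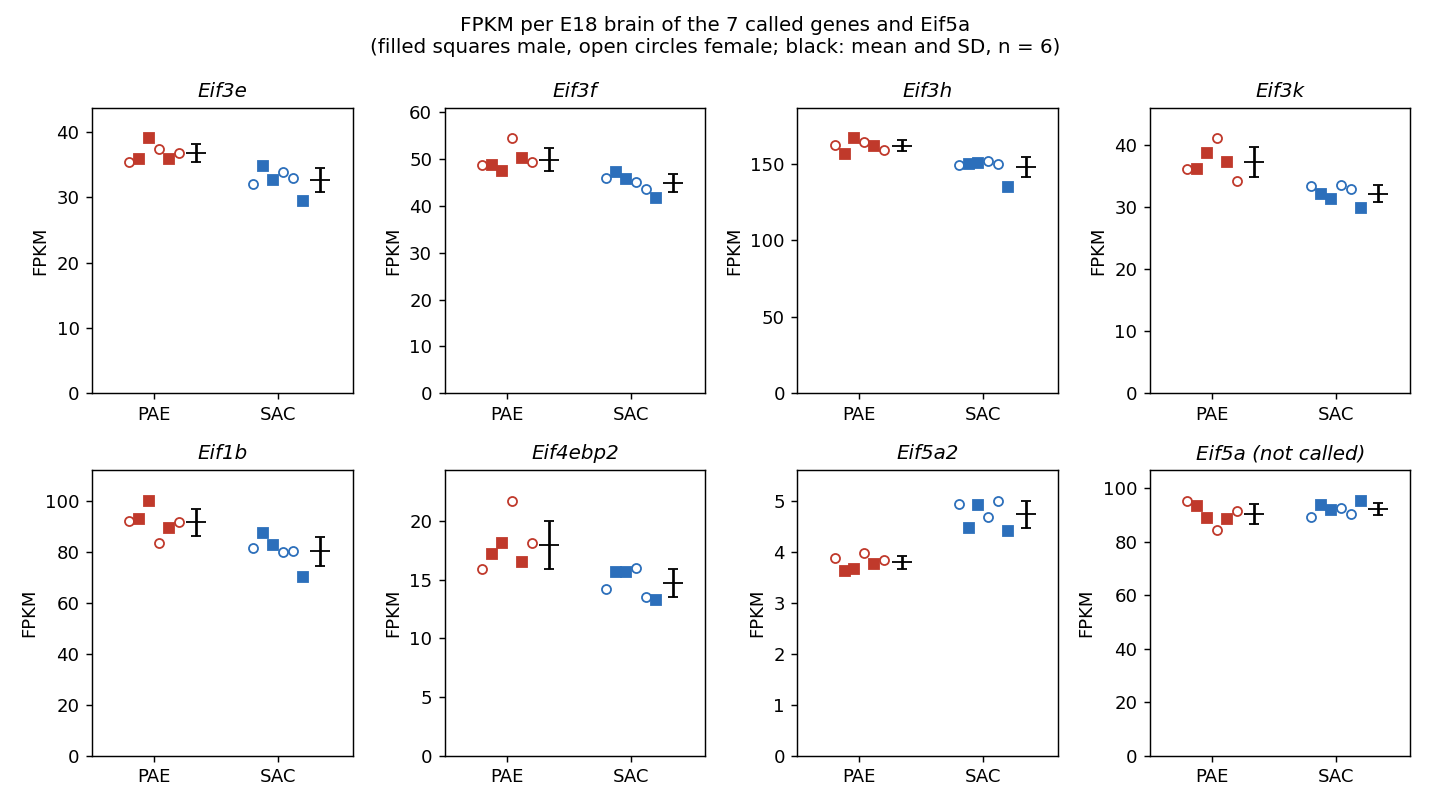
FPKM (vertical axis, from 0) of the 7 genes that passed the test and of Eif5a in each PAE brain (left, red) and SAC brain (right, blue), with males as filled squares, females as open circles, and the mean and SD of 6 brains in black. Eif3e, Eif3f, Eif3h and Eif3k show every PAE brain above every SAC brain, and Eif5a2 the opposite.

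The other eIF3 genes did not pass. Eif3i, a WD-repeat subunit, averaged 21.9 ± 1.33 FPKM in PAE and 19.4 ± 1.24 FPKM in SAC (SD, n = 6 each, adjusted p = 0.0526, limma), and Eif3m, a further PCI subunit, 27.2 ± 2.30 and 24.3 ± 1.76 FPKM in PAE and SAC (adjusted p = 0.104, limma). Eif3a, Eif3b, Eif3c, Eif3d, Eif3g and Eif3l had log2 fold changes between 0.06 and 0.08 with adjusted p of 0.219 to 0.433. Eif3j1, whose product sits in the mRNA channel of the small subunit, was at 18.2 ± 1.29 FPKM in PAE and 18.6 ± 0.346 FPKM in SAC (adjusted p = 0.708, limma).

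Counted by brain, 13 eIF3 genes (all but Eif3j2) gave 8 (ES19-4), 8 (ES19-8), 12 (ES23-4), 10 (ES23-7), 10 (ES27-1) and 11 genes (ES27-4) above their own median of the 12 brains in PAE, against 1 (SAC12-5), 6 (SAC12-6), 5 (SAC12-7), 6 (SAC26-5), 1 (SAC26-7) and 0 genes (SAC26-8) in SAC. Every PAE brain thus had more eIF3 genes above the median than any SAC brain. The 4 genes that passed do not overlap between the groups, so each adds to every PAE count and to no SAC count. Without them the counts of PAE and SAC brains overlap, so the order of the counts is no separate support for the calls. These are counts over genes of 1 complex measured in the same libraries and are not separate observations. In ES23-7 the subunits diverged, with Eif3a, Eif3c, Eif3k and Eif3m, among others, at the highest value of the PAE brains and Eif3d (74.8 FPKM), Eif3g (51.4 FPKM) and Eif3l (54.7 FPKM) at the lowest.

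**Figure D3:**
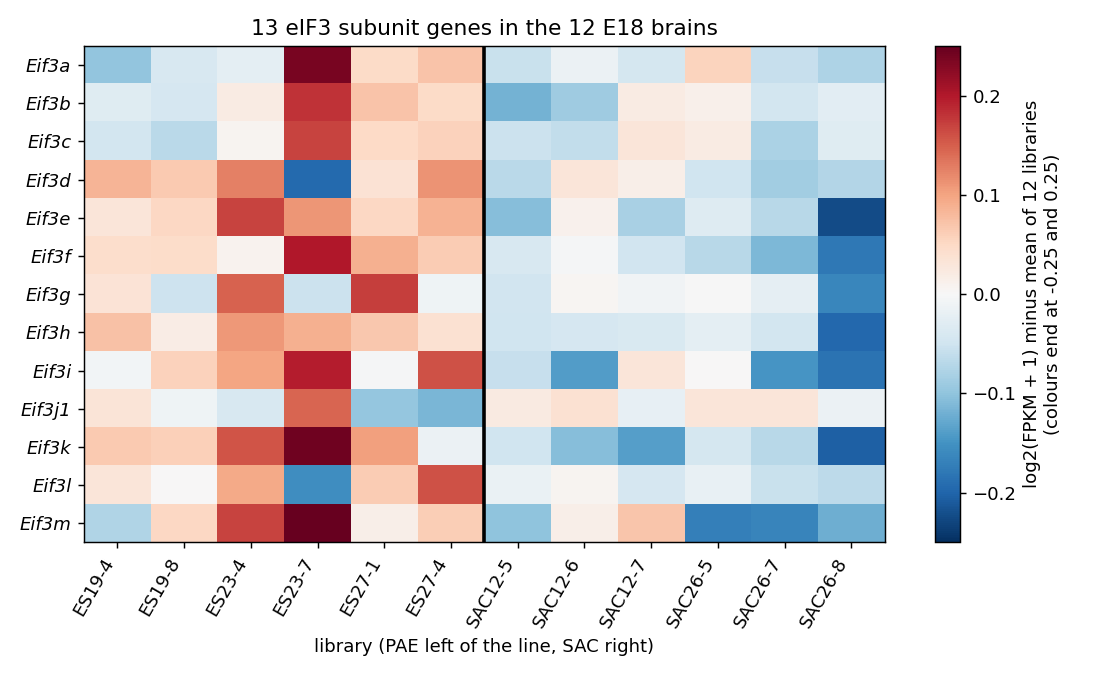
Colour gives log2(FPKM + 1) minus the mean of the 12 libraries for 13 eIF3 genes (rows) in each brain (columns), PAE left of the line and SAC right. Most cells are red in PAE and blue in SAC, SAC26-8 has 0 of 13 genes above their median, and in ES23-7 Eif3d and Eif3l go against the rest.

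Of the pair of eIF5A genes, Eif5a2 was lower in PAE and Eif5a did not pass. Eif5a2 had 3.87 (ES19-4), 3.63 (ES19-8), 3.67 (ES23-4), 3.98 (ES23-7), 3.76 (ES27-1) and 3.83 FPKM (ES27-4) in PAE brains, against 4.93 (SAC12-5), 4.46 (SAC12-6), 4.92 (SAC12-7), 4.67 (SAC26-5), 5.00 (SAC26-7) and 4.40 FPKM (SAC26-8) in SAC brains. Every PAE brain was below every SAC brain. The log2 fold change was -0.26 ± 0.04 (SE, n = 6 and 6, adjusted p = 0.0181, limma), and it stayed between -0.27 and -0.24 with adjusted p of 0.00413 to 0.0469 when each library was left out. Eif5a, far more abundant, averaged 90.3 ± 3.86 FPKM in PAE and 92.2 ± 2.16 FPKM in SAC (SD, n = 6 each, adjusted p = 0.604, limma).

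Of the genes around the cap, Eif4ebp2, the main 4E-binding protein of the brain, was higher in PAE, and those for eIF4E, eIF4G and eIF4A did not pass. Eif4ebp2 had 15.9 (ES19-4), 17.2 (ES19-8), 18.2 (ES23-4), 21.8 (ES23-7), 16.5 (ES27-1) and 18.1 FPKM (ES27-4) in PAE brains, against 14.2 (SAC12-5), 15.7 (SAC12-6), 15.7 (SAC12-7), 15.97 (SAC26-5), 13.5 (SAC26-7) and 13.3 FPKM (SAC26-8) in SAC brains. The groups overlapped at ES19-4 and SAC26-5, and ES23-7 was the highest of all. The log2 fold change was 0.27 ± 0.07 (SE, n = 6 and 6, adjusted p = 0.0376, limma). Eif4ebp1, the relative that is more abundant outside the brain, averaged 2.55 ± 0.621 FPKM in PAE and 2.01 ± 0.271 FPKM in SAC (adjusted p = 0.178, limma), and Eif4enif1, the eIF4E transporter, 12.8 ± 0.685 and 12.5 ± 0.684 FPKM in PAE and SAC (adjusted p = 0.588, limma).

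The helicase Eif4a1 averaged 86.8 ± 4.80 FPKM in PAE and 78.0 ± 4.41 FPKM in SAC (SD, n = 6 each) and narrowly missed the threshold with an adjusted p of 0.0552 (limma). Its cofactors Eif4b (74.5 ± 5.55 and 68.0 ± 3.15 FPKM in PAE and SAC, adjusted p = 0.112) and Eif4h (42.3 ± 4.09 and 38.6 ± 1.37 FPKM, adjusted p = 0.158) did not pass with limma. Neither did Eif4a2, a close relative of Eif4a1, or Eif4a3, the form of the exon junction complex, with adjusted p of 0.482 and 0.941. The cap-binding genes Eif4e, Eif4e2 and Eif4e3 had log2 fold changes between -0.00 and 0.04 and adjusted p of at least 0.629. Of the scaffolds, Eif4g3 averaged 26.1 ± 1.10 FPKM in PAE and 28.2 ± 0.918 FPKM in SAC, a log2 fold change of -0.11 ± 0.04 (SE, n = 6 and 6, adjusted p = 0.0791, limma), and Eif4g2, whose product lacks the part that binds eIF4E, was at 122 ± 3.45 FPKM in PAE and 121 ± 4.70 FPKM in SAC (adjusted p = 0.861, limma).

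Among the factors that select the start codon, Eif1b was higher in PAE and 5 of 6 genes did not pass. Eif1b had 92.2 (ES19-4), 92.7 (ES19-8), 100.1 (ES23-4), 83.3 (ES23-7), 89.2 (ES27-1) and 91.8 FPKM (ES27-4) in PAE brains, against 81.3 (SAC12-5), 87.5 (SAC12-6), 82.5 (SAC12-7), 79.8 (SAC26-5), 80.3 (SAC26-7) and 70.1 FPKM (SAC26-8) in SAC brains. The overlap came from ES23-7, the lowest PAE brain, which was below SAC12-6. Its log2 fold change was 0.19 ± 0.05 (SE, n = 6 and 6, adjusted p = 0.0436, limma). Eif1, with 81.3% of its 342 coding bases identical to Eif1b, averaged 65.6 ± 6.31 FPKM in PAE and 64.3 ± 2.21 FPKM in SAC (SD, n = 6 each, adjusted p = 0.829, limma). The eIF1A genes lay on the other side of 0, with Eif1ax at 30.1 ± 1.02 FPKM in PAE and 32.0 ± 0.769 FPKM in SAC (adjusted p = 0.103, limma) and Eif1a at 15.9 ± 1.41 and 16.9 ± 0.792 FPKM (adjusted p = 0.325, limma). Eif5, the GTPase-activating partner of eIF2, had an adjusted p of 0.49, and Eif1ad of 0.238.

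In the eIF2 branch 0 of 13 genes passed with limma, 0 of 4 carriers of the initiator tRNA, 0 of 5 subunits of eIF2B and 0 of 4 kinases. Eif2b2, the beta subunit of eIF2B, averaged 15.7 ± 0.860 FPKM in PAE and 14.2 ± 1.17 FPKM in SAC (SD, n = 6 each) and was the 1 gene of these 13 with an unadjusted p under 0.05 (adjusted p = 0.115, limma). Without moderation of the variances 0 of these 13 passed as well. Eif2s2 and Eif2s1, the beta and alpha subunits of eIF2, were at 41.4 ± 1.67 and 17.2 ± 0.648 FPKM in PAE, against 40.3 ± 1.76 and 16.7 ± 0.687 FPKM in SAC. Eif2b5, the catalytic subunit, averaged 23.3 ± 1.16 FPKM in PAE and 22.8 ± 1.13 FPKM in SAC. Among the kinases, Eif2ak1 (HRI) had the highest level, 15.4 ± 0.592 FPKM in PAE and 15.1 ± 0.443 FPKM in SAC, followed by Eif2ak3 (PERK) and Eif2ak4 (GCN2), with Eif2ak2 (PKR), the kinase that senses double-stranded RNA, lowest of the 50 genes at 1.92 ± 0.272 FPKM in PAE and 2.13 ± 0.287 FPKM in SAC. Adjusted p-values of the kinases were 0.443 to 0.989.

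At the last step of initiation, Eif6, which keeps the large ribosomal subunit apart until it is ready, averaged 7.54 ± 0.306 FPKM in PAE and 6.70 ± 0.719 FPKM in SAC (SD, n = 6 each, adjusted p = 0.114, limma). Eif5b, the GTPase that joins the subunits, was at 33.5 ± 2.05 FPKM in PAE and 32.3 ± 1.16 FPKM in SAC (adjusted p = 0.493, limma). Neither passed.

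By gene value the 50 genes ran from 155 FPKM for Eif3h, 127 FPKM for Eif3a, 122 FPKM for Eif4g2 and 114 FPKM for Eif3c down to 2.28 FPKM for Eif4ebp1 and 2.02 FPKM for Eif2ak2 (means of 12 brains). The order can differ by transcript, as the only listed transcript of Eif4a1 averaged 166 FPKM beside 82.4 FPKM for the gene. The levels were steady between brains of 1 group. Without Eif3j2 the coefficient of variation was 2.29% to 24.3% in PAE and 1.86% to 13.5% in SAC, with medians over all 50 genes of 6.05% in PAE and 4.87% in SAC. For 27 of the 50 genes the transcript table holds more than 1 transcript.

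Eif3j2 stood apart from this. It was listed at 0 FPKM in ES19-4 and at 10.99 (ES19-8), 10.8 (ES23-4), 12.3 (ES23-7), 13.1 (ES27-1) and 9.54 FPKM (ES27-4) in the other PAE brains, against 0 FPKM in SAC26-5 and SAC26-7 and 11.9 (SAC12-5), 12.2 (SAC12-6), 10.4 (SAC12-7) and 11.7 FPKM (SAC26-8) in the other SAC brains. Its values were either 0 or near those of the other brains, in both groups. It had the largest log2 fold change of the 50 (0.58 ± 0.85, SE, n = 6 and 6, adjusted p = 0.689, limma), and its interval ran from -1.26 to 2.43. Of the 75-base windows in its transcript, 87.4% also occur in Eif3j1, a near-identical copy, so that the split of reads between the copies is uncertain. Eif3j1 was at 16.9 to 20.5 FPKM in PAE and 18.1 to 18.9 FPKM in SAC, with 18.8 FPKM in each of the 3 brains where Eif3j2 was listed at 0.

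The transcript table held 120 transcripts of these genes, of which 96 had a mean of at least 1 FPKM. With limma 0 of 96 passed an adjusted p of 0.05, as did 0% of all 20937 transcripts tested, and 13 were higher and 2 lower at an unadjusted p under 0.05 (15.6% of the 96 beside 15.1% of all transcripts). Without moderation 0 of 96 passed too. The smallest adjusted p was 0.0892, for Eif3k-201 (114 FPKM in PAE and 98.4 FPKM in SAC) and Eif5a2-201 (3.79 and 4.73 FPKM), both without overlap between the groups. A gene value was not the sum of its transcripts. Eif3e had 1 transcript, Eif3e-201, with a mean of 80.3 FPKM beside 34.7 FPKM for the gene, and it did not separate the groups, with 65.9 to 112 FPKM in PAE and 58.4 to 88.2 FPKM in SAC.

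For some genes, such as Eif5a and Eif4enif1, the transcripts exchanged places between brains while the gene value held. Eif5a-202 was at 87.7 FPKM in ES19-4 and at 0.24 to 40.5 FPKM in the other PAE brains, against 0.77 to 39.0 FPKM in SAC, where Eif5a-209 reached 85.7 FPKM in SAC26-5 and 79.9 FPKM in SAC12-5. The gene value of Eif5a was 84.5 to 95.2 FPKM in PAE and 89.3 to 95.4 FPKM in SAC. Eif4enif1-201 was at 0 FPKM in ES19-4 and 17.4 to 20.3 FPKM in the other PAE brains, against 0.508 to 19.0 FPKM in SAC, and Eif4enif1-203 was at 9.05 FPKM in ES19-4 and 1.32 to 2.21 FPKM in the other PAE brains, against 1.68 to 17.5 FPKM in SAC. The gene value of Eif4enif1 was 12.04 to 13.6 FPKM in PAE and 11.7 to 13.6 FPKM in SAC.

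In Eif2a, a carrier of initiator tRNA that does not need GTP, the listed transcripts did not exchange places. The lesser one, Eif2a-205, stayed at 0 to 1.05 FPKM. In SAC12-7 Eif2a-201 was at 0.20 FPKM and Eif2a-205 at 0.03 FPKM beside 5.69 FPKM for the gene. The listed transcripts thus do not account for the gene value there, and exchange with transcripts not listed was not tested. The main transcript Eif2a-201 ran from 1.45 to 16.2 FPKM in PAE and from 0.20 to 3.61 FPKM in SAC (adjusted p = 0.107, limma), whereas the gene was at 5.80 (ES19-4), 6.60 (ES19-8), 7.40 (ES23-4), 6.97 (ES23-7), 6.66 (ES27-1) and 6.51 FPKM (ES27-4) in PAE, against 6.73 (SAC12-5), 6.14 (SAC12-6), 5.69 (SAC12-7), 6.23 (SAC26-5), 6.09 (SAC26-7) and 6.01 FPKM (SAC26-8) in SAC, groups that overlapped (adjusted p = 0.251, limma).

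**Figure D4:**
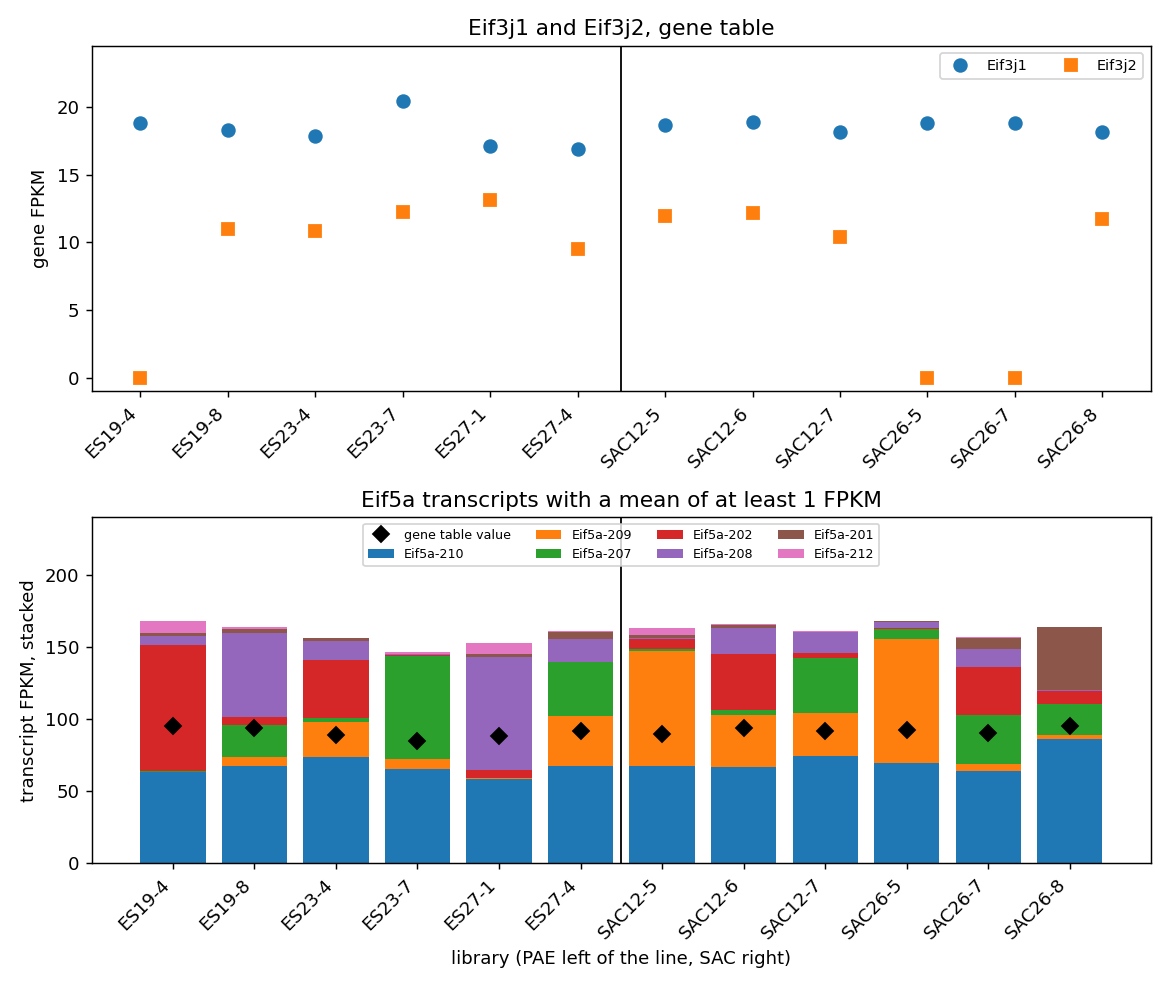
The upper panel gives gene FPKM of Eif3j1 and Eif3j2 in each brain and the lower panel the stacked FPKM of 7 Eif5a transcripts with a mean of at least 1 FPKM, with the gene value as a diamond, PAE left of the line and SAC right. Eif3j2 is at 0 in ES19-4, SAC26-5 and SAC26-7, and the makeup of the Eif5a stacks differs from brain to brain while the diamonds stay between 84.5 and 95.4 FPKM.

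Ratios of 8 pairs of related genes were compared in the same brains, with exact permutation over every split of the 12 brains into 6 and 6 (two-sided), and 0 of 8 reached an adjusted p of 0.05, with 3 at an unadjusted p under 0.05. The log2 ratio of Eif5a to Eif5a2 (FPKM + 1) averaged 4.25 ± 0.08 in PAE and 4.03 ± 0.10 in SAC (SD, n = 6 each, difference 0.23, exact permutation p = 0.00649, adjusted p = 0.052). The ratio of Eif4g2 to Eif4g3 averaged 2.18 ± 0.08 in PAE and 2.07 ± 0.09 in SAC (difference 0.12, exact permutation p = 0.0195, adjusted p = 0.075), and that of Eif1 to Eif1b -0.48 ± 0.12 in PAE and -0.31 ± 0.09 in SAC (difference -0.17, exact permutation p = 0.0281, adjusted p = 0.075). The pairs Eif4a1 and Eif4a2, Eif4e and Eif4e2, Eif4ebp1 and Eif4ebp2, Eif3j1 and Eif3j2, and Eif2ak4 and Eif2ak3 had adjusted p of 0.498 to 0.717. The ratio of Eif5a to Eif5a2 passed without ES23-7 or ES27-1, and that of Eif1 to Eif1b without ES27-1.

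Within each sex none of the 50 genes passed. In male PAE vs. male SAC 0 of 50 were called with limma (beside 0.0324% of all genes), with 6 higher and 2 lower at an unadjusted p under 0.05 (16% beside 19.3% of all genes), and in female PAE vs. female SAC 0 of 50 (beside 0% of all genes), with 7 higher and 1 lower (16% beside 14.3% of all genes). Without moderation the counts were 0 and 0 as well. The log2 fold change was positive in both sexes for 31 genes, negative in both for 7 and of opposite sign for 12. Eif5a2 had log2 fold changes of -0.25 ± 0.06 in males and -0.26 ± 0.06 in females (SE, n = 3 and 3 in each sex, adjusted p = 0.113 and 0.308, limma), and Eif3k of 0.25 ± 0.06 in males and 0.15 ± 0.06 in females (adjusted p = 0.113 and 0.331, limma).

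The interaction of sex and treatment gave 0 of 50 calls with limma, 0 at an unadjusted p under 0.05 and 0 without moderation, beside 0.0081% of all genes called. The smallest p-values belonged to Eif2d and Eif2a, which both encode carriers of tRNA to the small subunit. Eif2d had 4.03 (ES19-4), 5.03 (ES19-8), 5.74 (ES23-4), 5.19 (ES23-7), 4.75 (ES27-1) and 4.60 FPKM (ES27-4) in PAE brains, against 4.90 (SAC12-5), 4.78 (SAC12-6), 4.21 (SAC12-7), 4.52 (SAC26-5), 4.71 (SAC26-7) and 4.24 FPKM (SAC26-8) in SAC brains. The PAE brains spanned the whole range of the SAC brains. The male minus female difference of the fold changes was 0.22 ± 0.13 for Eif2d and 0.17 ± 0.11 for Eif2a (SE, adjusted p of 1.00 for both, limma).

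Other genes of the pathway were taken from lists of known members. Of the 81 genes for cytosolic ribosomal proteins 29 were higher in PAE, 0 were lower and 52 did not pass, beside 4.34% higher and 5.22% lower of all genes tested, with a median log2 fold change of 0.16. Without moderation 16 of the 81 passed. Rps18 averaged 54.0 FPKM in PAE and 45.6 FPKM in SAC (adjusted p = 0.0203, limma), and Rpl27a 77.0 and 67.5 FPKM in PAE and SAC (adjusted p = 0.0203, limma). Of 12 genes for elongation and termination 0 passed with limma (6 at an unadjusted p under 0.05, beside 28.5% of all genes, and 0 passing without moderation). Gspt2, a release factor, was at 7.87 FPKM in PAE and 9.50 FPKM in SAC (adjusted p = 0.0538, limma). Eef1a2, the elongation factor form of mature neurons and muscle, was at 83.9 and 99.2 FPKM (adjusted p = 0.0619, limma).

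Of 19 genes that assist or restrain initiation under other names 1 was higher, Bzw2, a mimic of eIF5, at 48.1 FPKM in PAE and 40.7 FPKM in SAC (adjusted p = 0.0325, limma, and 0.0555 without moderation), and 18 did not pass, among them Habp4 at 7.73 and 10.3 FPKM in PAE and SAC (adjusted p = 0.0506). Of 14 mTOR and MNK pathway genes 1 was higher, Rps6, itself a ribosomal protein, at 349 FPKM in PAE and 313 FPKM in SAC (adjusted p = 0.0327, limma), and Mknk2, a kinase of eIF4E, was at 9.28 and 8.35 FPKM (adjusted p = 0.0702). Of 17 genes of the integrated stress response 1 was higher, Ddit3 (CHOP), at 13.4 FPKM in PAE and 11.1 FPKM in SAC (adjusted p = 0.0235, limma), and 1 was lower, Impact, an inhibitor of GCN2, at 16.5 FPKM in PAE and 20.3 FPKM in SAC (adjusted p = 0.037, limma, and 0.0663 without moderation). Atf4, the central factor of that response, was at 68.0 FPKM in PAE and 64.4 FPKM in SAC and did not pass (adjusted p = 0.199, limma). Of 6 genes for hypusine and polyamines 0 passed with limma (2 at an unadjusted p under 0.05, 1 passing without moderation), with Sms at 30.4 FPKM in PAE and 32.8 FPKM in SAC (adjusted p = 0.0574) and Odc1 at 46.2 and 41.5 FPKM (adjusted p = 0.164). Of 3 genes for initiation in mitochondria, Mtif2 was higher at 12.1 FPKM in PAE and 10.3 FPKM in SAC (adjusted p = 0.0215, limma), while Mtif3 was at 5.60 and 5.24 FPKM (adjusted p = 0.160). These counts stand beside 4.34% higher and 5.22% lower of all genes tested. An unadjusted p under 0.05 was found for 5 of the 19 genes, 3 of the 14 and 3 of the 17. The share of all genes was 28.5%.

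The Hox level that set libraries apart moved with treatment in 10 of 12 brains. In the brains that departed from this, Eif4ebp2 was at 15.9 FPKM in ES19-4, below SAC26-5 (15.97 FPKM), and Eif1b was at 87.5 FPKM in SAC12-6, above ES23-7 (83.3 FPKM). The other 5 genes that passed have groups that do not overlap, so that ES19-4 and SAC12-6 lie with their own groups there by that fact alone. Without both libraries 8 of the 50 genes were higher and 1 lower, beside 967 higher and 1153 lower of all 12346. With the Hox level as a covariate 0 of 50 genes passed, as did 0 of all 12346, with 9 of the 50 at an unadjusted p under 0.05. Under that covariate the log2 fold change was -0.24 for Eif5a2 (adjusted p = 0.224), 0.18 for Eif3k (adjusted p = 0.26) and 0.11 for Eif3e (adjusted p = 0.33), with limma. The part of hindbrain and spinal cord RNA in the calls was not tested beyond these fits.

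**Figure D5:**
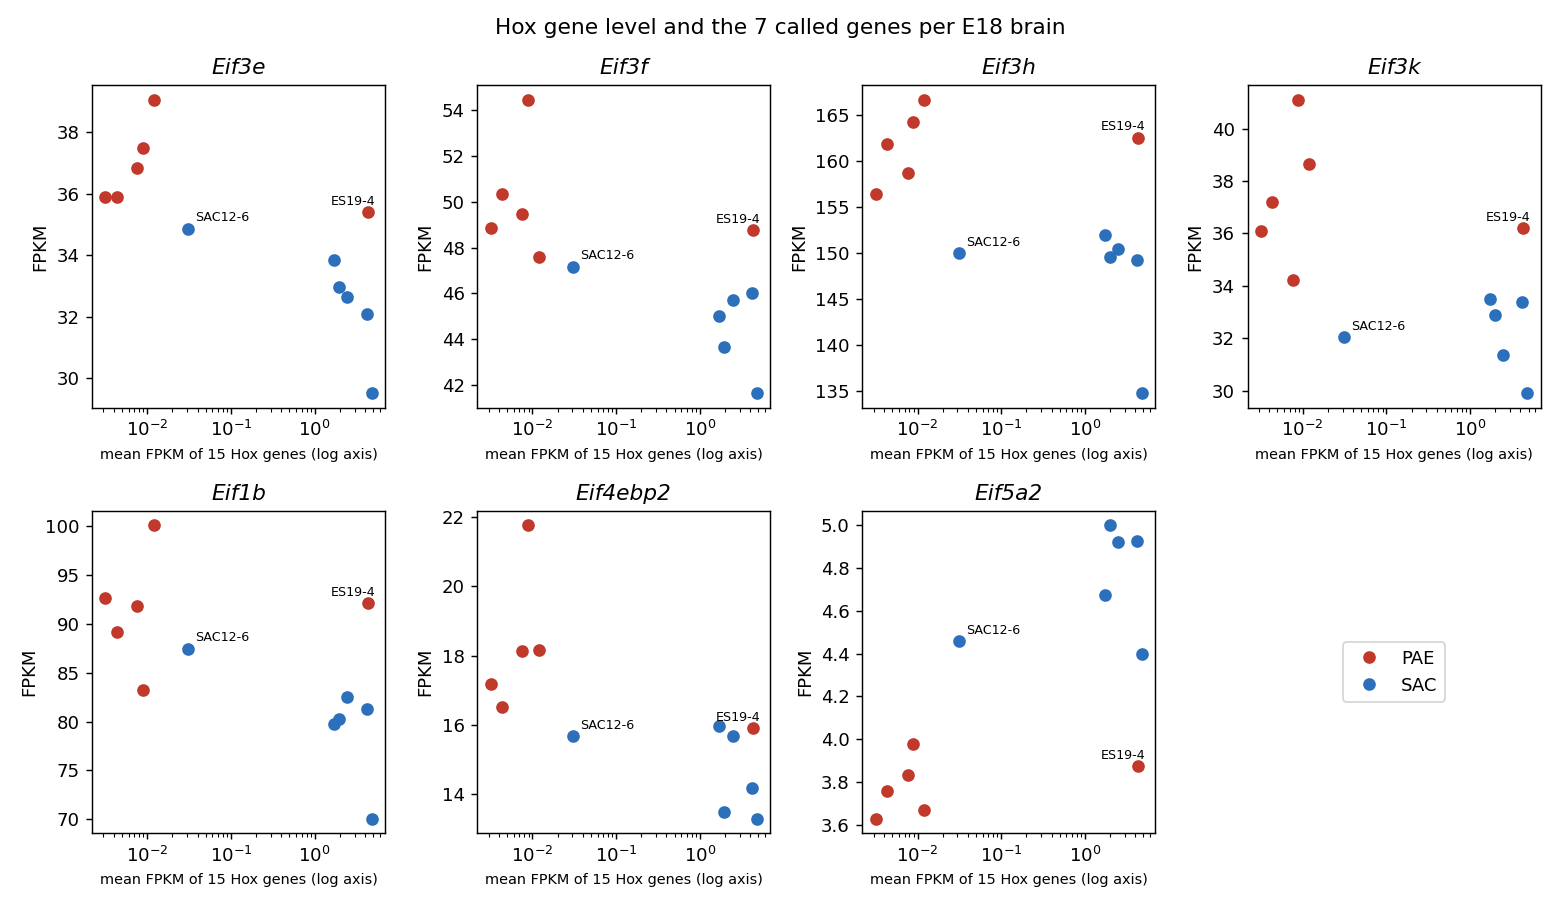
Each point is 1 brain, with the mean FPKM of 15 Hox genes on a log axis (horizontal) and FPKM of 1 of the 7 genes that passed on a linear axis that does not start at 0 (vertical), PAE in red and SAC in blue. ES19-4 has 4.32 FPKM of Hox RNA, within the range of 5 SAC brains, and SAC12-6 has 0.0309 FPKM. Eif4ebp2 in ES19-4 (15.9 FPKM) and Eif1b in SAC12-6 (87.5 FPKM) lie within the range of the opposite group.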

How the data were processed

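Libraries were made with the Kapa Stranded kit after poly-A selection and sequenced as paired ends. Per the submitters' processing notes and the methods, reads were checked with FastQC, trimmed with cutadapt, aligned with HISAT2 and quantified with StringTie and Ballgown, whose versions the sources used here do not give. Per gene and per transcript, the authors deposited FPKM, normalized for length and depth, so that counts are unknown and no counting error can be given. The methods name the build GRCm28, while 43 of 50 gene positions equal those of GENCODE M21 (GRCm38). Whether counting used strand is not stated, and 12 of the 50 genes overlap another protein-coding gene, but 0 of the 7 that passed do. Sequence of 75 bases shared with other gene models was found for 19 genes. Of the 7 that passed, these include Eif3h (16.7% of windows) and Eif3e (7.89%).

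Values were compared as log2(FPKM + 1) with limma 3.58.1 in R 4.3.3, for genes averaging 1 FPKM or more, with empirical Bayes moderation, a variance trend and Benjamini-Hochberg adjustment over all genes. A fold change on this scale understates that of low genes. The sexes and the interaction came from 1 fit of 4 groups. Intervals are 95% intervals. Procedures were tested on simulated data. The members and lists were chosen with earlier results of these data known. Named with every brain's value were genes with an adjusted p under 0.05, the 3 largest fold changes and the 2 smallest interaction p. Named with group means were, for each role, the gene of highest level and that of smallest p, and members of the pairs. From each pathway list came the 2 smallest p. Others (Atf4, and other genes named to account for their role) were picked with their values in view. Alternatives were another pseudocount, no filter, median-of-ratios and quantile scaling, sums of transcripts, quality weights, no moderation, sex, Hox level or name prefix in the model, and leaving out libraries. Promoters are from RefSeq (GRCm38.p6), with entries for 40 of the 50 genes. Columns of no sample numbered 0.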

Additional observations from a re-analysis of the deposited data

Results flagged for a closer look

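In 9 of 100 groups of 6 brains (50 genes in PAE and in SAC) 1 brain lay farther from the rest than Dixon's 95% limit allows. Chance alone gives about 1 in 20 for independent groups of normally distributed values. The 100 groups come from the same brains, so an excess over that share was not tested. In ES23-7, 4 genes were flagged among the PAE brains, with Eif2ak3 high at 7.75 FPKM (next 6.56), Eif4e3 high at 8.44 FPKM (next 7.40), Eif4h high at 50.2 FPKM (next 42.9) and Eif3d low at 74.8 FPKM (next 87.9). Eif4a1 was high in ES23-4 at 96.1 FPKM (next 86.7), and Eif3j2 was listed at 0 FPKM in ES19-4 (next 9.54). In SAC26-8, 3 genes were low among the SAC brains, with Eif3g at 47.6 FPKM (next 51.7), Eif3h at 135 FPKM (next 149) and Eif4g2 at 112.5 FPKM (next 121). Of these genes 1, Eif3h, passed the test for PAE vs. SAC, and it did not pass without SAC26-8.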

How the results depend on the processing

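With the sexes pooled, 6 genes were higher and 1 lower (4 and 1 without moderation, and 4 and 1 with the name prefix as a random block). Of all 12346 genes 536 were higher and 644 lower (335 and 346 without moderation, 378 and 464 with the random block). Sums of transcripts gave 2 higher (Eif2a and Eif3k), with 1 gene past the 1.5-fold threshold (Eif2a, log2 fold change 1.88). Of all 12459 genes tested on these sums 241 were higher and 308 lower. With the Hox level as covariate, and with means per name prefix, 0 were higher and 0 lower, as for all 12346 genes. Quality weights gave 2 calls in males (Eif3k and Eif5a2). With the sexes pooled, these weights also raised the calls among all 12346 genes, to 777 higher and 959 lower. Ratios without a pseudocount gave 1 pair (Eif5a to Eif5a2). Leaving out 1 library at a time gave 0 to 9 higher (9 without ES19-4), 0 to 1 in females (Eif4ebp2 without ES19-4), 0 to 2 transcripts (Eif3k-201 and Eif5a2-201 without ES19-4) and 0 to 2 pairs. Directions turned, among results that did not pass, for Eif3j2 (-0.28) and Eif2d (-0.0074) with the Hox level and for the log2 ratio of Eif4ebp1 to Eif4ebp2 without a pseudocount (0.0385). With 1 library left out, that ratio ran from -0.101 to 0.0073 (above 0 without SAC12-5) and that of Eif2ak4 to Eif2ak3 from -0.0679 to 0.0127 (above 0 without ES23-7 or SAC12-5). The causes were not tested. The call of Eif5a2 was lost only with the Hox level and with means per name prefix. No scaling moved the median of all genes by over 0.1 on the log2 scale. No paired analysis was possible because the labels give the groups no shared replicate numbers. The alternatives for the 1.5-fold counts and for transcripts were chosen after seeing the data. Depth is unknown, so the error of low genes such as Eif2ak2 and Eif5a2 cannot be given.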
